A study of Mus musculus with 6 samples.

Results

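Matrix metalloproteinases, the ADAM and ADAMTS proteases, the ADAMTS-like proteins and their tissue inhibitors were examined in mouse astrocytes of the cerebellum and the neocortex. The members were all probe sets whose platform gene symbol was Mmp, Adam or Adamts with a number, Adamtsl with a number, or Timp1, Timp2 or Timp3. This rule gave 122 of the 45037 non-control probe sets, which stand for 69 of 18193 named genes: 18 Mmp, 28 Adam, 15 Adamts, 5 Adamtsl and 3 Timp genes. RNA was measured on 6 single-colour Affymetrix arrays, 3 labelled neocortical astrocyte and 3 labelled cerebellar astrocyte. The labels of the neocortical arrays name the ICR strain, while those of the cerebellar arrays name no strain, so strain and region cannot be told apart if the strains differed. The labels state no genotype, treatment, age or culture step, and do not say if replicates are different animals, so a p-value here reflects no more than how far these samples vary, which may be technical variation.

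Matrix metalloproteinases are zinc-dependent enzymes made as inactive precursors, which cut collagens, laminins and other proteins once their propeptide is removed. ADAMs sit in the cell membrane and release the outer parts of other membrane proteins, whereas ADAMTS enzymes are secreted and cut proteoglycans, procollagens and microfibril proteins. ADAMTS-like proteins share the matrix-binding modules of ADAMTS enzymes but have no protease domain. TIMPs plug the active site of these enzymes, and TIMP3 also blocks several ADAMs and ADAMTS enzymes. In brain, astrocytes are known as a source of TIMP1 and of ADAMTS enzymes that cut the proteoglycans around neurons.

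All values below are quantile-normalized signal in arbitrary units, and log2 differences are cerebellar minus neocortical. No detection call was used. The dim range was described by 24 bacterial control probe sets, which read from 2.83 to 258 after normalization. The 17 astrocyte markers matched on the array all lay above that range in at least 1 group. Of these markers 7 were lower and 1 was higher in cerebellar astrocytes by the fit described next. Signal of the 3′ over the 5′ Gapdh control, which reflects how intact and fully labelled the RNA was, ran from 0.913 to 1.07 on cerebellar and from 0.865 to 0.883 on neocortical arrays. Its part in the differences was not tested. Of the skeletal muscle list 11 of 14 markers were dim in both groups, and its summed signal was 6597 to 9593 on cerebellar against 1550.0 to 1900 on neocortical arrays. Myh8, a perinatal muscle myosin, was the 1 of 3 tested markers to be higher, with 6856, 4453 and 7823 on the cerebellar and 9.32, 6.85 and 50.4, below the floor of 62.2, on the neocortical arrays. In the endothelial and mural list 2 of 8 tested markers were lower and none higher, in the neuron list 2 of 7, and in the choroid plexus and ependyma list 2 of 9. In the oligodendrocyte lineage list 2 of 8 were lower and 1 was higher. The part of such cells in the results was not tested. In such samples fewer cells of a type and less RNA per cell cannot be told apart, and signal of different genes was not compared.

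Of the 69 member genes, 40 passed the filter on dim signal, a mean at or above the 40th percentile of all probe sets, by their brightest probe set, and 7 of these passed the threshold, a limma adjusted p under 0.05 over all 27022 probe sets tested. Timp1, Mmp19, Mmp23, Adamts6, Adamts16 and Adamtsl3 were higher and Adamts3 was lower in cerebellar astrocytes. The share past the threshold over all 12637 genes tested was 12.9%, with 5.4% higher and 7.47% lower, against 17.5% of the member genes, with 15% higher and 2.5% lower. By probe set, 7 members were higher and 2 lower of 73 tested, or 12.3%, against 10.7% of all probe sets. Among all probe sets tested, 4.95% were higher and 5.8% lower, which is 1337 and 1567 of them, or 821 and 2121 with arrays scaled by the median. The share of member genes called was thus near that of all genes, with 6 calls upward and 1 downward. The arrays of 17 of the 40 member genes did not overlap between groups, 12 with the cerebellar and 5 with the neocortical arrays above, against 34.5% of all genes tested, 16% and 18.5% by direction. The median log2 difference was 0.26 over the 40 member genes and -0.02 over all genes tested. The members' median was 0.13 with arrays scaled by the median, 0.12 without cerebellar replicate 3 and 0.09 with no filter. Over all probe sets tested the median was -0.10, 0.02 and 1.72e-15 in the same order, and 0.01 in the reported fit. By an unadjusted limma p under 0.05, 13 member genes were higher and 4 lower of 40, while 28.2% of all genes tested passed that mark, 12.7% higher and 15.5% lower. Without cerebellar replicate 3 the counts were 4 higher and 0 lower, the 4 being Timp1, Adamts6, Adamts16 and Adamtsl3. That was also so without each neocortical replicate in turn. Without cerebellar replicate 1 they were 6 and 1, with Adam12 and Adamts12 among the higher and Adamts7 the lower, and without cerebellar replicate 2 they were 4 and 1.

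**Figure D1:**
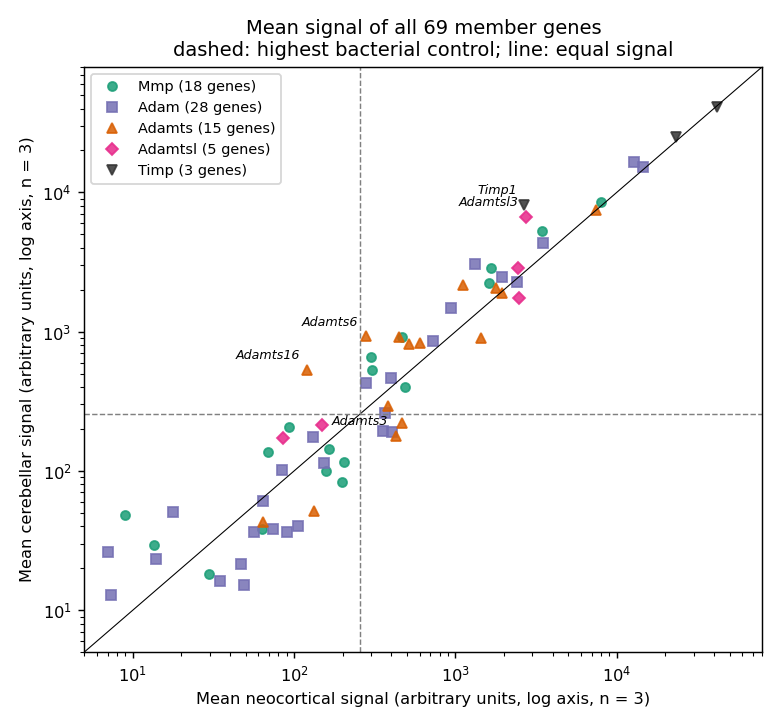
Mean signal of each of the 69 member genes by its brightest probe set in neocortical (horizontal) and cerebellar astrocytes (vertical), both on log axes in arbitrary units with 3 arrays per group. Dashed lines mark the highest bacterial control at 258, and both group means of 29 genes lie under it.

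The remaining 29 genes were not tested, and both group means of each lay in the dim range. Their signal ran from 3.2 to 334 over the 6 arrays. They were the 4 collagenase genes Mmp1a, Mmp1b, Mmp8 and Mmp13, the stromelysin Mmp10, the matrilysin Mmp7, the macrophage elastase Mmp12, the enamel protease Mmp20, Mmp9 and Mmp24. They also held 14 of the 16 ADAM genes known mainly from the reproductive tract, Adam28, Adamts18, Adamts19, Adamtsl2 and Adamtsl5. Signal in this range does not show that a transcript was absent. A cluster of 10 neighbouring Mmp genes in the RefSeq gene order, from Mmp7 to Mmp13, had 9 genes on the array, of which Mmp3 alone passed the filter and the other 8 were dim in both groups.

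**Figure D2:**
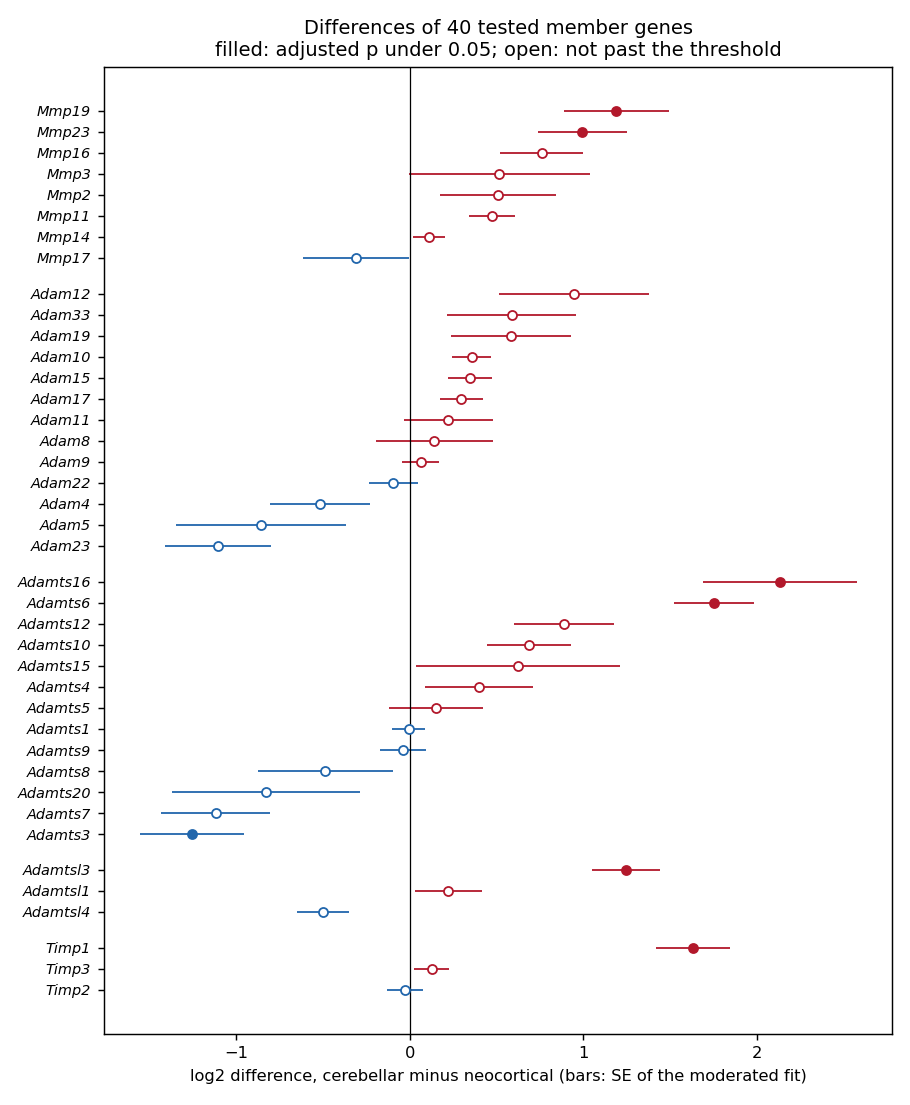
Log2 difference, cerebellar minus neocortical, of the 40 tested member genes, with bars for the standard error of the moderated fit. Filled points passed the threshold, 6 to the right of 0 and 1 to the left, and the 13 Adam genes are all open.

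Promoter sequence is shown for 3 genes that passed the threshold and for Mmp3, the gene of the Mmp cluster that passed the filter, as examples of the windows in which the motifs below were searched. Each run is the 250 bases before the RefSeq gene start on build GRCm38.p6, read along the gene's strand. Timp1 lies at chrX:20869916-20870165, plus strand, Adamtsl3 at chr7:82335444-82335693, plus strand, Adamts3 at chr5:89883335-89883584, minus strand and Mmp3 at chr9:7445572-7445821, plus strand. Capitals mark TGANTCA, the AP-1 site, which reads the same on both strands, GGGCGG on either strand, the GC box, and TATAAA on the gene's own strand, the TATA box.
Timp1: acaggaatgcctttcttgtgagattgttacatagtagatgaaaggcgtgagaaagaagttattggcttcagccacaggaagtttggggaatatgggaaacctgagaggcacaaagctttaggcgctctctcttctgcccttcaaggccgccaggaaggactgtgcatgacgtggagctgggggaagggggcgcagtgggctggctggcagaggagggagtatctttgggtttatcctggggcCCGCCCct
Adamtsl3: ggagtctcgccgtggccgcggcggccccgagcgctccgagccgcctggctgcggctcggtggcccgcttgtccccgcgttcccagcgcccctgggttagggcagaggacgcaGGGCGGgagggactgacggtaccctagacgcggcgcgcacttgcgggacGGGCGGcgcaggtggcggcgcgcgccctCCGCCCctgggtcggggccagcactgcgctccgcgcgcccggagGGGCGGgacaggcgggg
Adamts3: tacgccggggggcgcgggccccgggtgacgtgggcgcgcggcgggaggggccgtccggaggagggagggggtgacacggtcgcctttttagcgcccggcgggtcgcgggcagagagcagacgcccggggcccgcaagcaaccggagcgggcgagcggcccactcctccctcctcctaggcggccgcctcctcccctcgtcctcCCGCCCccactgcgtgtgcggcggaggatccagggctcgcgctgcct
Mmp3: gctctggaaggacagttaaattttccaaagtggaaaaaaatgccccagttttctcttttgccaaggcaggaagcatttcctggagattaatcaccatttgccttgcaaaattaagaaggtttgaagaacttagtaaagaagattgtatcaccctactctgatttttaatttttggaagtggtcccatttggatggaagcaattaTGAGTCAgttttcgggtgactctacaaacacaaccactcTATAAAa
The promoter table held 40 of the 69 member genes, and 5 of the 8 genes with a called probe set. TGANTCA stood in 10 of the 40, or 25%, against 7.82% of 27025 genes in the table, counting a gene with several starts once. Of those 10, 8 were genes of the Mmp cluster, namely Mmp1a, Mmp1b, Mmp3, Mmp7, Mmp10, Mmp12, Mmp13 and Mmp20, of which all but Mmp3 were dim in both groups. GGGCGG stood in 19 of the 40 member genes, or 47.5%, against 35.4% of all genes in the table. Among the 21 tested member genes in the table it stood in 15, or 71.4%. The share over all genes that passed the filter was not counted, so that figure has no like background. TGANTCA stood in 2 of those 21, Adam19 and Mmp3, and TATAAA also in 2, Adamts1 and Mmp3, or 9.52% for each motif. TATAAA stood in 9 of the 40 member genes, or 22.5%, against 8.94% of all genes in the table. Those 9 were Adamts1, Adamtsl2 and, in the Mmp cluster, Mmp1a, Mmp1b, Mmp3, Mmp7, Mmp10, Mmp13 and Mmp20. Of the 5 called genes 4 held GGGCGG and none TGANTCA or TATAAA, which is near the shares of the tested members. A match of letters is a description, and none of these motifs was tested for use.

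Timp1, the inhibitor induced in reactive glia, was the member with the lowest adjusted p among brightest probe sets. Its signal was 9395, 6553 and 8398.5 on cerebellar replicates 1 to 3 and 2693, 1889 and 3396 on neocortical replicates 1 to 3. Every cerebellar array lay above every neocortical array. The log2 difference was 1.63 ± 0.21 (SE), or 3.1-fold (limma adjusted p = 0.00201), and the call held with each array left out in turn, with adjusted p from 0.0032 to 0.0115. With no filter on dim probe sets the adjusted p was 0.0519.

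Timp2 and Timp3 were bright and did not pass the threshold. Timp2, an inhibitor that also helps to activate MMP2 at the cell surface, read 42181, 41590.0 and 38296 on the cerebellar and 44038, 35272 and 45885 on the neocortical arrays, and the groups overlapped. Its log2 difference was -0.03 ± 0.10 (SE, limma adjusted p = 0.899). Timp3, the matrix-bound inhibitor, read 24002, 26746 and 24749 on the cerebellar and 24791, 20078 and 24541 on the neocortical arrays, also overlapping, with a difference of 0.13 ± 0.10 (SE, limma adjusted p = 0.463). The sign of both differences turned under some alternatives, between -0.16 and 0.09 for Timp2 and between -0.06 and 0.18 for Timp3. None of the 5 tested probe sets of Timp2 or the 4 of Timp3 passed, with log2 differences from -0.06 to 0.32 and from -0.32 to 0.22. Timp4, an inhibitor outside the member rule, was higher in cerebellar astrocytes, with 2165, 2073 and 2482 on the cerebellar against 1058, 1778 and 907 on the neocortical arrays and a log2 difference of 0.90 ± 0.24 (SE, limma adjusted p = 0.042).

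The 8 tested Mmp genes held 2 that were higher in cerebellar astrocytes and 6 that did not pass, with none lower. Over all genes tested 5.4% were higher and 7.47% lower. By unadjusted limma p under 0.05 the Mmp counts were 4 higher and 0 lower, beside 28.2% of all genes tested. Mmp19, a secreted enzyme that cuts basement membrane proteins, read 628, 554 and 804 on the cerebellar and 369.9, 191 and 333 on the neocortical arrays. The groups did not overlap, and the log2 difference was 1.19 ± 0.30 (SE, limma adjusted p = 0.0386). The second probe set of Mmp19 gave 0.28 ± 0.23 (SE, limma adjusted p = 0.499), with overlapping arrays. Mmp23, an unusual membrane-bound member without the common haemopexin domain, read 834, 1117 and 782 on the cerebellar and 496, 327 and 568 on the neocortical arrays. Again no cerebellar array fell below a neocortical one, and the difference was 0.99 ± 0.26 (SE, limma adjusted p = 0.0397). Its second probe set gave 1.21 ± 0.48 (SE, limma adjusted p = 0.149), and there the groups overlapped. With the replicate number as a block the adjusted p of Mmp23 was 0.051. Neither call held when an array was left out, with adjusted p from 0.057 to 0.115 for Mmp19 and from 0.0569 to 0.113 for Mmp23 over the 6 arrays left out in turn.

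Mmp2, the gelatinase that cuts denatured and basement membrane collagen, did not pass. It read 2971, 4463 and 8471 on cerebellar and 3037, 2900.1 and 4433 on neocortical arrays, with cerebellar replicate 3 alone far above the rest. The log2 difference was 0.51 ± 0.33 (SE, limma adjusted p = 0.376), and 0.10 without that array. The second probe set gave 0.67 ± 0.33 (SE, limma adjusted p = 0.234), which passed with the replicate block (limma adjusted p = 0.0381). Mmp9, the other gelatinase, was dim and not tested, at 197, 38.3 and 64.4 on the cerebellar against 37.5, 251 and 183 on the neocortical arrays.

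The membrane-type enzymes activate other metalloproteinases at the cell surface. Mmp14, the main activator of MMP2, read 8999, 8018 and 8781 on the cerebellar and 7800.2, 7764 and 8307 on the neocortical arrays, with overlapping groups and a log2 difference of 0.11 ± 0.09 (SE, limma adjusted p = 0.478) whose sign turned to -0.10 when arrays were scaled by the median. Mmp16, a close relative, read 2243, 2335 and 4038 on the cerebellar and 1666, 1334 and 1956 on the neocortical arrays, and all its cerebellar arrays exceeded the neocortical ones. Its difference of 0.76 ± 0.24 (SE) did not pass (limma adjusted p = 0.0771), and passed with the replicate block (limma adjusted p = 0.0157). The other tested probe sets of Mmp16 overlapped between groups, at 0.53 ± 0.27, 0.49 ± 0.22 and 0.04 ± 0.46 (SE, limma adjusted p = 0.249, 0.191 and 0.968). None of those passed with the block, and the mean of its probe sets gave 0.46 (limma adjusted p = 0.224). Mmp17, a lipid-anchored member, overlapped between groups (log2 difference -0.31 ± 0.31, SE, limma adjusted p = 0.566). Mmp24, known from neurons, was dim, with 139, 86.3 and 24.5 on the cerebellar against 43, 256 and 298 on the neocortical arrays. Mmp15 was not analysed here. Mmp11, the stromelysin that is activated inside the cell, read 2195, 2344 and 2179.9 on the cerebellar against 1762, 1412 and 1674 on the neocortical arrays without overlap (log2 difference 0.48 ± 0.13, SE, limma adjusted p = 0.0529).

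None of the 13 tested Adam genes passed the threshold by limma. Of these, 4 had an unadjusted p under 0.05, 3 higher and 1 lower, a share close to the 28.2% of all genes tested. Adam10, the sheddase that makes the first cut in Notch receptors and cuts the amyloid precursor protein, read 18563, 13862 and 17214 on cerebellar and 12566, 13151 and 12762 on neocortical arrays. Every cerebellar array was above the neocortical ones, and the log2 difference was 0.36 ± 0.11 (SE, limma adjusted p = 0.0782). Without cerebellar replicate 2 it was 0.48 and passed (limma adjusted p = 0.0135). It did not pass under the other 17 alternatives, and was 0.15 with arrays scaled by the median (limma adjusted p = 0.598). Further tested probe sets of Adam10 gave 0.49 ± 0.18 and 0.32 ± 0.18 (SE, limma adjusted p = 0.113 and 0.286). The latter overlapped between groups. Adam17, the sheddase of tumour necrosis factor and of growth factor precursors, read 3784, 4287 and 4856 on the cerebellar and 3713, 3508 and 3254 on the neocortical arrays, without overlap. Its difference was 0.30 ± 0.12 (SE, limma adjusted p = 0.162), and 0.12 with arrays scaled by the median (limma adjusted p = 0.629). The other tested probe sets of Adam17 overlapped between groups, at 0.29 ± 0.17 and 0.07 ± 0.24 (SE, limma adjusted p = 0.315 and 0.889). Adam9, a related sheddase, read 15649, 14089 and 15754.5 on the cerebellar and 15371, 12501 and 15846 on the neocortical arrays. Its groups overlapped, with a difference of 0.06 ± 0.11 (SE, limma adjusted p = 0.759) that turned negative under 2 of 18 alternatives.

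The ADAMs without an active protease act as adhesion proteins and as receptors for the secreted LGI proteins. Adam23 read 173, 158 and 238 on the cerebellar and 361, 375 and 479.6 on the neocortical arrays. Every neocortical array lay above every cerebellar one, and the cerebellar mean lay in the dim range, so the size of the difference is uncertain. The log2 difference of -1.10 ± 0.30 (SE) missed the threshold narrowly (limma adjusted p = 0.0502), and passed under 5 of 17 alternatives. Adam22 read 2012, 2453 and 2297 on the cerebellar and 2061, 2615 and 2561.5 on the neocortical arrays, with a difference of -0.09 ± 0.14 (SE, limma adjusted p = 0.724). Adam11 read 469.9, 551 and 371 on the cerebellar and 378, 478 and 335 on the neocortical arrays, with a difference of 0.22 ± 0.26 (SE, limma adjusted p = 0.631). The arrays of both genes overlapped between the groups.

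Among 13 tested Adamts genes, 2 were higher, 1 was lower and 10 did not pass. Over all genes tested 12.9% passed, 5.4% higher and 7.47% lower, and a family of this size is too small to set apart from that. Adamts6 belongs with Adamts10 to the enzymes that act on fibrillin microfibrils. It read 850.0, 1005 and 914 on cerebellar and 277, 338 and 218 on neocortical arrays. The log2 difference was 1.75 ± 0.23 (SE), or 3.37-fold (limma adjusted p = 0.00206). Its second probe set read 888, 661 and 1077 on the cerebellar and 282, 267 and 241 on the neocortical arrays, again without overlap, and gave 1.71 ± 0.24 (SE, limma adjusted p = 0.00301). Adamts6 was the member gene that passed under all 18 alternatives, with adjusted p from 0.00116 to 0.0283. Adamts10 read 824, 691 and 932 on the cerebellar and 601, 368 and 578 on the neocortical arrays and did not pass (log2 difference 0.68 ± 0.24, SE, limma adjusted p = 0.108).

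Adamts16, a less characterised enzyme known from kidney and gonad, was higher in cerebellar astrocytes. Its signal was 433, 694 and 474 on cerebellar and 30.5, 166 and 163 on neocortical arrays, the last group in the dim range with neocortical replicate 1 below the floor of 62.2. The log2 difference was 2.13 ± 0.44 (SE, limma adjusted p = 0.0179), a size that is uncertain because of the dim neocortical values. It was 1.66 without neocortical replicate 1 and 1.47 with a 40th percentile floor. The second probe set overlapped between groups, with 0.90 ± 0.59 (SE, limma adjusted p = 0.369). Without cerebellar replicate 2 the adjusted p was 0.0621, and with the mean of both probe sets 0.0897.

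Adamts3, a procollagen N-propeptidase that also matures the lymphatic growth factor VEGFC, was the member gene that was lower in cerebellar astrocytes. It read 144, 207 and 186 on the cerebellar against 472, 463 and 345 on the neocortical arrays, without overlap, and its cerebellar mean was dim. The log2 difference was -1.25 ± 0.30 (SE, limma adjusted p = 0.0312). The call was lost with each of 5 arrays left out in turn and held without cerebellar replicate 2, over a range of 0.0423 to 0.124. Adamts7, an enzyme that cuts the cartilage protein COMP, read 287, 148 and 231 on the cerebellar and 518, 417 and 465 on the neocortical arrays, likewise without overlap and with a dim cerebellar mean. Its difference of -1.12 ± 0.31 (SE) did not pass (limma adjusted p = 0.054), and passed with the replicate block (0.0455) and without cerebellar replicate 1 (0.035). Adamts12, its closest relative, read 1249, 2445 and 2750.4 on the cerebellar against 1284, 1159 and 889.8 on the neocortical arrays, with cerebellar replicate 1 inside the neocortical range (log2 difference 0.89 ± 0.29, SE, limma adjusted p = 0.0837).

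None of the 7 proteoglycan-cleaving Adamts genes passed the threshold by their brightest probe set. None had an unadjusted limma p under 0.05 either, beside 28.2% of all genes tested. These enzymes cut the lecticans, the proteoglycans of the brain matrix. Adamts1 read 7098, 7304 and 7891 on the cerebellar and 7876, 6986 and 7516 on the neocortical arrays, with a log2 difference of -0.01 ± 0.09 (SE, limma adjusted p = 0.98) whose sign turned under 4 of 18 alternatives. Adamts4 read 891, 479.7 and 1130.2 on the cerebellar and 574, 514 and 713 on the neocortical arrays, a difference of 0.40 ± 0.31 (SE, limma adjusted p = 0.456). Adamts5 read 1884, 1365 and 2918 on the cerebellar and 2092, 1365 and 1915 on the neocortical arrays, a difference of 0.15 ± 0.27 (SE, limma adjusted p = 0.772) whose sign turned under 2 of 18 alternatives. All 3 genes overlapped between groups. Adamts9 differed by probe set. The brightest read 1727, 1856 and 2122 on the cerebellar and 1990.3, 1831 and 2029 on the neocortical arrays with overlap and a difference of -0.04 ± 0.13 (SE, limma adjusted p = 0.884), whose sign turned under 2 of 18 alternatives. Another read 1133, 1455 and 1521 on the cerebellar and 2031, 2419.7 and 1844 on the neocortical arrays, without overlap, and was lower in cerebellar astrocytes (log2 difference -0.62 ± 0.17, SE, limma adjusted p = 0.0467). That second call was lost with any 1 array left out, with adjusted p from 0.0564 to 0.163. The substrates Ncan and Vcan, both lecticans, differed in opposite directions, with log2 differences of -1.69 ± 0.17 and 1.60 ± 0.20 (SE, limma adjusted p = 0.00067 and 0.00179).

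Adamtsl3 was the 1 of 3 tested ADAMTS-like genes to pass, beside 12.9% of all genes tested, and it was higher in cerebellar astrocytes. Adamtsl3 read 9275, 5342 and 5511 on cerebellar and 2649, 2825 and 2734 on neocortical arrays. Cerebellar replicate 1 was the highest, and the lowest cerebellar array was still above all neocortical ones. The log2 difference was 1.25 ± 0.20 (SE), or 2.37-fold (limma adjusted p = 0.00517), and passed with each array left out (adjusted p from 0.00148 to 0.0292). With no filter on dim probe sets the adjusted p was 0.0724. Adamtsl4, a microfibril-associated protein of the eye and other tissues, read 1729, 1935 and 1585 on the cerebellar and 2598, 2087 and 2759 on the neocortical arrays, with all neocortical arrays above and no call (log2 difference -0.50 ± 0.15, SE, limma adjusted p = 0.0657). Adamtsl1 overlapped between groups (0.22 ± 0.19, SE, limma adjusted p = 0.511).

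**Figure D3:**
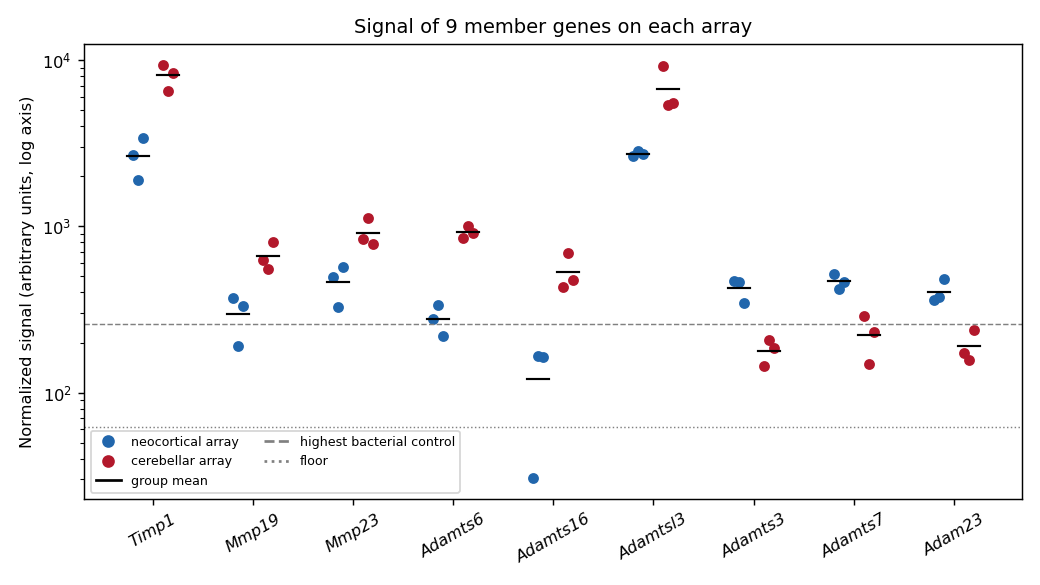
Normalized signal on a log axis of 9 member genes on each of 3 neocortical (blue) and 3 cerebellar (red) arrays, with black bars for group means. The groups do not overlap for any of them, the dashed line marks the highest bacterial control at 258, and the neocortical mean of Adamts16 and the cerebellar means of Adamts3, Adamts7 and Adam23 lie under it.

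Members also differed among the cerebellar arrays. Of the 40 tested genes, 16 were highest of all 6 arrays on cerebellar replicate 3, against 4 on replicate 1 and 8 on replicate 2. Signal on cerebellar replicate 3 was at least 2-fold that on cerebellar replicate 1 for 9 genes, and the reverse held for 0. Neither count was made over all genes tested, so they do not show if this skew is particular to the members. The largest ratio of cerebellar replicate 3 to replicate 1 was that of Adamts15, which read 264, 636 and 1838 on cerebellar and 329, 510.2 and 502 on neocortical arrays. Mmp3, a stromelysin, read 198, 397 and 999 on the cerebellar and 361, 233 and 317 on the neocortical arrays. Adam12, a protease of mesenchymal and muscle precursor cells, read 1357, 2114 and 5676 on the cerebellar and 1123, 1311 and 1549.6 on the neocortical arrays. Its log2 difference was 0.94 ± 0.43 (SE, limma adjusted p = 0.204), and its second probe set gave 0.77 ± 0.38 (SE, limma adjusted p = 0.23), which passed with the replicate block (limma adjusted p = 0.0449). In each of these 3 genes cerebellar replicate 3 lay above every other array. Adam19 read 1050.2, 1023 and 2352 on the cerebellar and 1068, 631 and 1114 on the neocortical arrays, with the same array highest.

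The summed signal of 18 fibroblast and meningeal markers was highest on cerebellar replicate 3. It was 97764, 165918 and 308938 on cerebellar replicates 1 to 3 and 182841, 152615 and 215274 on the neocortical ones. Members picked for their ratio of cerebellar replicate 3 to replicate 1 share the order of these 2 arrays by the pick. Of the members so picked, Adam8, Adamts8 and Adamts20 were highest among the cerebellar arrays on replicate 2. In the list of these markers 1 of 16 tested was higher and 4 were lower in cerebellar astrocytes, and Alx4 and Slc47a1 were dim in both groups. Twist1 was higher, with a log2 difference of 1.04 ± 0.19 (SE, limma adjusted p = 0.00961). Ogn, Fmod, Islr and Thy1 were lower, at -2.44 ± 0.23, -1.73 ± 0.42, -1.06 ± 0.10 and -0.74 ± 0.20 (SE, limma adjusted p = 0.000447, 0.0321, 0.000487 and 0.0472). The collagen markers Col1a1, Col1a2 and Col3a1 did not pass and read at least 7986 on every array. The part of such cells in these values was not tested. Without cerebellar replicate 3 Timp1, Adamts6, Adamts16 and Adamtsl3 passed, and Mmp19 did not (limma adjusted p = 0.115). Summed signal of 15 microglia and macrophage markers was 9303, 47573 and 31402 on the cerebellar and 23339, 42613 and 15531 on the neocortical arrays. Adam8, a protease of myeloid cells, read 454, 1187 and 917 on the cerebellar and 900.4, 656 and 625 on the neocortical arrays and had its lowest and its highest value on the same arrays as this sum, cerebellar replicates 1 and 2. Among the neocortical arrays the order differed, with Adam8 highest on replicate 1 and the sum highest on replicate 2. The part of microglia in the signal of Adam8 was not tested.

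**Figure D4:**
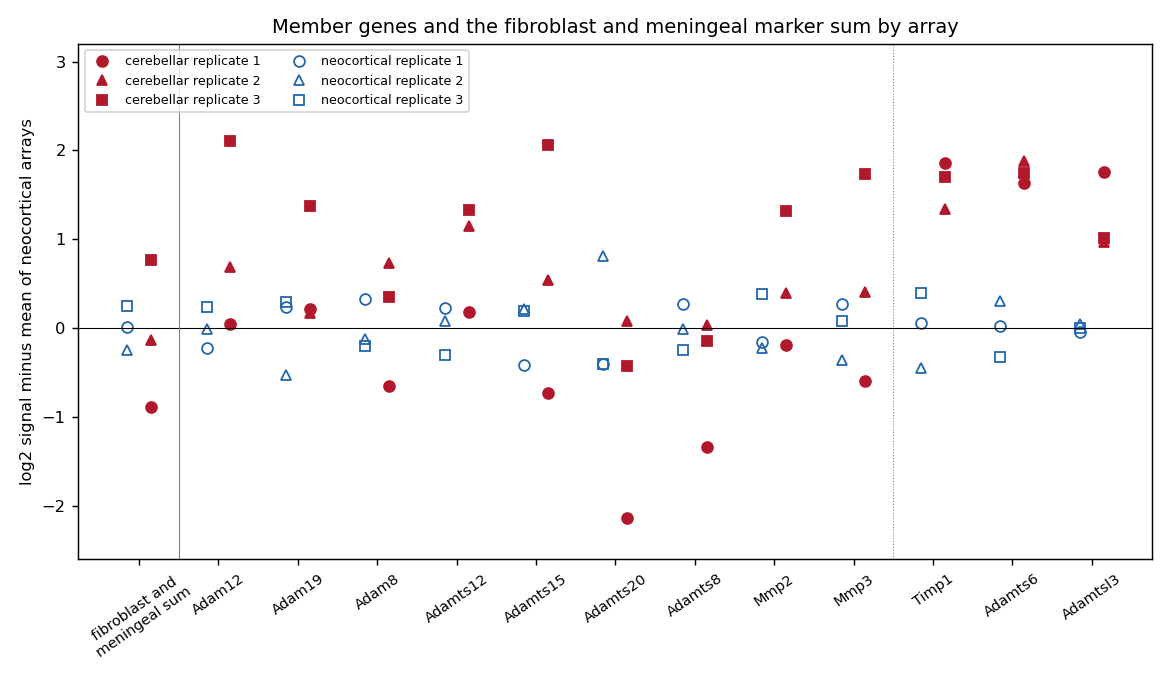
Log2 signal relative to the mean of the neocortical arrays for the summed fibroblast and meningeal markers (left), the 9 member genes at least 2-fold higher on cerebellar replicate 3 than on replicate 1 (middle) and 3 genes past the threshold (right), by array. The 9 genes were picked by that ratio, so their order on cerebellar replicates 1 and 3 is set by the pick. Cerebellar replicate 1 has the lowest marker sum at 97764 and replicate 3 the highest at 308938, while the cerebellar arrays of Timp1, Adamts6 and Adamtsl3 all lie above the neocortical ones.

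The other tested members did not pass and are given by their differences. By its brightest probe set Adam15, a sheddase of vessel and epithelial cells, was above on every cerebellar array, with 2171, 2604 and 2683 on the cerebellar against 1933, 1940.5 and 1952 on the neocortical arrays (log2 difference 0.35 ± 0.13, SE, limma adjusted p = 0.116). Its other tested probe sets overlapped between groups and differed in sign, at 0.48 ± 0.27 and -0.51 ± 0.35 (SE, limma adjusted p = 0.302 and 0.399). Adam33 overlapped between groups (0.59 ± 0.37, SE, limma adjusted p = 0.356). Among the ADAMs known mainly from the reproductive tract, Adam4 and Adam5 passed the filter. The cerebellar mean of Adam5 lay in the dim range, so the size of its difference is uncertain. Their log2 differences were -0.52 ± 0.29 and -0.86 ± 0.49 (SE, limma adjusted p = 0.293 and 0.304). Adamts8 and Adamts20, both on the list of proteoglycan-cleaving enzymes, overlapped and were lowest of all arrays on cerebellar replicate 1, at 149, 384 and 340.4 against 454, 372 and 317 for Adamts8 and 302, 1405 and 988 against 999.9, 2333 and 1006 for Adamts20. Their log2 differences were -0.49 ± 0.39 and -0.83 ± 0.54 (SE, limma adjusted p = 0.471 and 0.372).

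Other genes of the system changed in both directions. Of 17 tested genes of precursor activation and the plasmin system, 4 were higher and 2 lower. Plat, tissue plasminogen activator, was higher, with 37646, 43258 and 36978 on the cerebellar against 19892, 25451.5 and 20774 on the neocortical arrays (log2 difference 0.84 ± 0.11, SE, limma adjusted p = 0.00197). On the log2 scale S100a10, which binds plasminogen at the cell surface, was higher by 0.70 ± 0.11 and Rhbdf1, a partner protein in ADAM17 transport, by 0.58 ± 0.12 (SE, limma adjusted p = 0.00534 and 0.0202). Tspan33, a tetraspanin that binds ADAM10, and the proprotein convertase Pcsk6 were lower, with log2 differences of -1.43 ± 0.16 and -0.86 ± 0.21 (SE, limma adjusted p = 0.00103 and 0.0336). Of 11 tested inhibitors, inducers and clearance genes outside the members, 3 were higher and 2 lower. Apart from Timp4, the thrombospondin gene Thbs2 was higher by 1.73 ± 0.19 and the proteoglycan gene Spock2 by 1.49 ± 0.20, while Thbs1 and the protease trap A2m were lower, at -1.44 ± 0.21 and -0.82 ± 0.21 (SE, limma adjusted p = 0.000814, 0.00249, 0.00359 and 0.0382). Reck, a membrane-bound inhibitor, did not pass (-0.35 ± 0.21, SE, limma adjusted p = 0.315).

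Of 33 tested matrix substrate genes, 8 were higher and 5 lower. On the log2 scale Fbn2, a fibrillin of the microfibrils, was higher by 1.82 ± 0.35, the basement membrane gene Nid1 by 1.71 ± 0.22 and the laminin gene Lama4 by 1.62 ± 0.42 (SE, limma adjusted p = 0.0125, 0.00182 and 0.0421). The collagen gene Col11a1 and Fmod, a small proteoglycan, were lower, at -1.79 ± 0.11 and -1.73 ± 0.42 (SE, limma adjusted p = 4.14e-05 and 0.0321). Of 37 tested substrates of sheddases, 2 were higher, Cx3cl1 by 1.31 ± 0.16 and Ptprk by 0.68 ± 0.14, and 5 were lower, among them the Notch ligand gene Dll1 at -1.76 ± 0.31 and the phosphatase gene Ptprz1 at -1.61 ± 0.21 (SE, limma adjusted p = 0.0015, 0.0176, 0.00806 and 0.0019). The cerebellar mean of Dll1 lay in the dim range. Of 21 tested transcription factors and cytokines known to act on metalloproteinase genes, 6 were higher and 2 lower. Ets2 was higher by 1.11 ± 0.15, Runx1 by 1.06 ± 0.28 and the AP-1 subunit gene Fosl2 by 0.75 ± 0.12, while Tgfb2 and the AP-1 subunit gene Fosb were lower, at -0.79 ± 0.13 and -0.74 ± 0.12 (SE, limma adjusted p = 0.00205, 0.0433, 0.00654, 0.00635 and 0.00666). The shares past the threshold in these 5 lists were 35.3%, 45.5%, 39.4%, 18.9% and 38.1% in the order given, beside 12.9% of all genes tested. Their median log2 differences were 0.12, -0.02, 0.40, -0.03 and 0.07 in the same order, beside -0.02 over all genes tested.

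**Figure D5:**
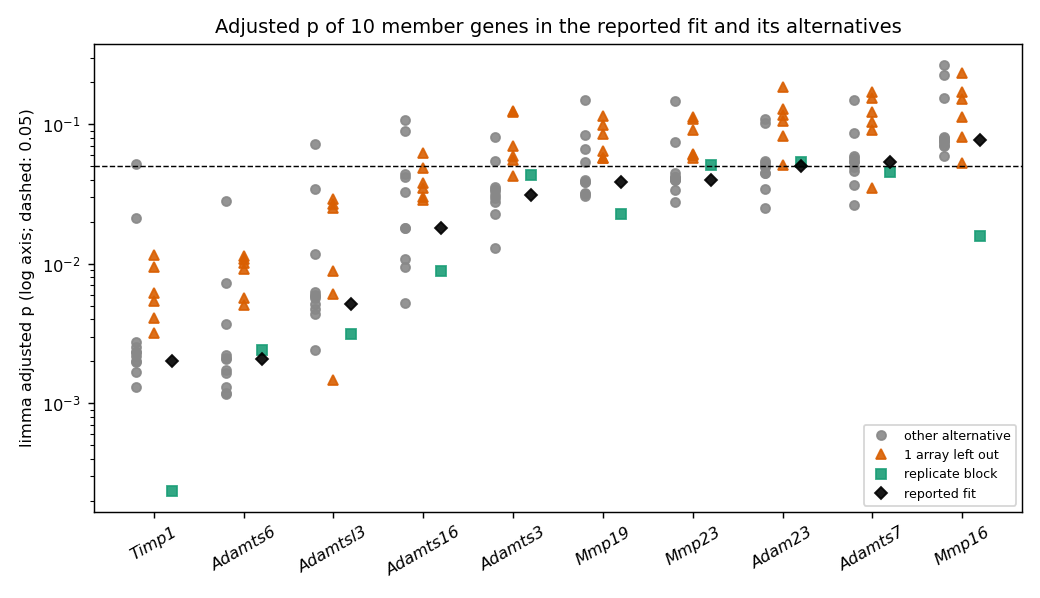
Limma adjusted p on a log axis of 10 member genes in the reported fit (black), with the replicate block (green), with 1 array left out (orange) and under the other alternatives (grey). Adamts6 stays under the dashed threshold of 0.05 in all of them, while Mmp19 and Mmp23 rise above it with any array left out.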

How the data were processed

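The authors deposited 1 linear intensity value per probe set and array for 6 arrays. How probe sets were summarised, with which software, and any detection call are not stated by the labels used. Each array had a mean of 1500 once 2% was trimmed at each end, and the medians ran from 284.7 to 361.2. Quantile normalization was run on 45037 non-control probe sets, whose values were raised to a floor at the 20th percentile (62.2) and taken to log2. The 27022 probe sets with a mean at or above the 40th percentile entered a two-sided lmFit and eBayes model without a block, its variance trended on the mean (limma 3.58.1, R 4.3.3), with Benjamini-Hochberg adjustment over all of them. The fit was tested on simulated data.

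Gene names came from the platform annotation, updated by Entrez ID to RefSeq GRCm38.p6. A total of 932 probe sets with several symbols were left unnamed. The brightest probe set stood for each gene. Members, lists and tests were chosen with earlier results of these data known. Genes named with all values were those with a called probe set, those at least 2-fold apart without overlap, and a fixed list of well-known members. Genes marked by their spread among cerebellar arrays, and Adam4, Adam5, Adam15, Adam33, Adamts10, Adamtsl1, Adamtsl4, Mmp11, Mmp17, Reck and Vcan, were added after their values were seen. With 3 arrays a group, their number sets the precision.

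The groups share replicate numbers. After subtracting group means, the correlation between arrays of the same number was 0.182, 0.186 and 0.101, and that of other pairs ran from -0.184 to 0.0261. Deviations from a group mean cancel within each group, so these correlations depend on each other and cannot settle if the arrays are paired. The reported fit has no block, so its p-values and counts take no account of such pairing. Values with the replicate block stand beside the member results they change. Alternatives covered normalization, floor, filter, variance model, block, array weights, probe set choice and each array left out.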

Additional observations from a re-analysis of the deposited data

How the results depend on the processing

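Across the 18 alternatives none of the 7 called genes changed direction by its brightest probe set, nor did the called probe set of Adamts9, whose brightest probe set turned under 2, and a probe set that failed a filter had no value there. The count of member genes lower in cerebellar astrocytes, 1 as reported, was 4 with arrays scaled by the median, 3 with a floor at the 40th percentile, with array weights or with probe sets averaged per gene, 2 without a variance trend or with the replicate block, and 0 for values as deposited, with no filter or with a filter at the 60th percentile. By probe set the lower count, 2 as reported, was 5 under median scaling, 4 with the higher floor or array weights, 1 with the stricter filter and 0 for values as deposited or with no filter. The higher counts, 6 genes and 7 probe sets, fell to 1 and 2 with no filter and stayed within 1.5 times otherwise. The median difference of member genes fell from 0.26 to 0.0885 with no filter and to 0.13 with median scaling. With single arrays left out, member genes ranged from 4 to 6 higher and 0 to 1 lower, member probe sets from 5 to 8 and 0 to 1, and the median from 0.12 to 0.34. Of all probe sets tested, 1337 were higher and 1567 lower as reported, 577 and 704 with no filter, 678 and 928 without a variance trend, and 821 and 2121 under median scaling. With single arrays left out they ranged from 550.0 to 1242 higher and from 668 to 1560.0 lower. Median scaling shifted the median over all probe sets tested from 0.01 to -0.10. With no filter more probe sets were tested and the variance trend was fitted anew with the dim ones included. With an array left out there were fewer samples. The part of each in the lower counts was not tested. The replicate block ended the call of Mmp23, added Mmp16 and Adamts7 and, by single probe sets, Adam12 and Mmp2, and changed no other member call.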
